A study of Mus musculus with 9 samples.

Results

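The comparison is between the livers of Liver-Cpr-null mice and those of Cpr-low mice, with the model of each array taken from its title. It rests on 6 of the 9 arrays of the series, 3 per model, and the other 3 arrays, of Cpr-lox control mice, served to place each difference above, below or between the models. The 3 models are male mice, 2 months old, on a mixed background of C57BL/6 and 129/Sv. Cpr is NADPH-cytochrome P450 reductase. The Liver-Cpr-null model lacks it in the liver; as background to the name, the deletion is made by a Cre recombinase driven by the albumin promoter, so it concerns hepatocytes and leaves the other cells of the liver and the other organs with their Cpr. The Cpr-low model is a hypomorph, which keeps a reduced level of the enzyme in all tissues. Cpr-lox mice carry the floxed gene without the deletion. Livers of 8 or 9 mice per model gave 3 independent RNA pools per model, and 5 micrograms of RNA per pool were labelled and hybridized to 1 Affymetrix MOE430A array each. The sources used here do not give which mice went into which pool, and the spread behind each p-value is that among pools. The gene encoding Cpr is not analysed here and gave no check of the labels.

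Cpr sits in the membrane of the endoplasmic reticulum and passes electrons from NADPH to every microsomal cytochrome P450, and also to squalene monooxygenase, heme oxygenase and cytochrome b5. Through these partners it is needed for the oxidation of drugs, for sterol and bile acid synthesis and for the breakdown of retinoids, steroids and fatty acids. The liver reads the levels of many of these compounds with nuclear receptors, among them CAR and PXR for foreign compounds, FXR for bile acids and PPAR-alpha for fatty acids, whose target genes are described below.

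Of 22690 probe sets on the array, 20380 carried 1 gene symbol and measured 12393 genes, of which 8797 were bright enough to be tested. Median deposited signals of the arrays lay between 171 and 179. Signals printed here were scaled to a common trimmed mean, and log2 differences (Liver-Cpr-null minus Cpr-low, ± SE) are on the log2(signal + 16) scale. On it, differences of dim genes are understated. Across tested genes, arrays correlated at 0.993 to 0.995 within Liver-Cpr-null, at 0.984 to 0.994 within Cpr-low and at 0.972 to 0.987 between these models. Cpr-low pool 1 stood apart, at -17.9 on the first principal component of the 6 arrays (59.8% of the variance) against -8.24 and -5.59 for the other Cpr-low pools and 9.90 to 11.1 for Liver-Cpr-null. The hybridization times recorded for the arrays were split into 3 runs at the gaps between them. These runs are inferred from the times alone. The first run held the 3 Cpr-lox arrays and Cpr-low pool 1, the second Cpr-low pools 2 and 3 with Liver-Cpr-null pools 1 and 2, and the third Liver-Cpr-null pool 3. The models could therefore be compared within the second run, 2 pools against 2, whereas run and model cannot be told apart for Liver-Cpr-null against Cpr-lox. Scanning took place on 2 days, the first for all 3 Cpr-lox arrays and the second for the other 6, so scan day and the control cannot be told apart in either comparison with Cpr-lox. A gene was called at a Benjamini-Hochberg adjusted p under 0.05 in a limma fit to all tested genes on the 9 arrays. Of the 747 genes called, 172 kept their call and direction under every one of the 24 other settings that tested them, among them leaving out any pool and comparing within the second run. Of these, 160 were tested under all 24, and 12, Cd36, Hsd3b2, Pdk4 and Orm3 among them, were too dim for the stricter signal filter. Genes named below belong to these 172 unless a lost call is stated beside them.

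Liver-Cpr-null and Cpr-low livers differed in 747 of 8797 genes, or 8.49%. Of these, 414 (4.71% of genes tested) were higher and 333 (3.79%) were lower in Liver-Cpr-null. A difference of at least 1.5-fold was found in 127 of the higher genes (1.44%) and in 73 of the lower genes (0.83%). The split depended on scaling, since signals as deposited gave 526 higher and 180 lower genes and scaling to a common median gave 528 and 131, while the median difference over all genes was -0.08 in this fit. Leaving out Liver-Cpr-null pool 1, Liver-Cpr-null pool 2 or Cpr-low pool 2 reduced the 747 calls to 403, 405 or 460. Arrays of the models did not overlap for 3226 genes (36.7%), among them 743 of the 747 called. At an unadjusted p under 0.05 in limma, 2296 of the 8797 genes passed in either direction. The unadjusted counts of lists below are to be read beside that share. Their counts of called genes are to be read beside the 4.71% higher and 3.79% lower of all genes tested. In the plot of all tested genes, called genes lie across the whole range of signal.

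**Figure D1:**
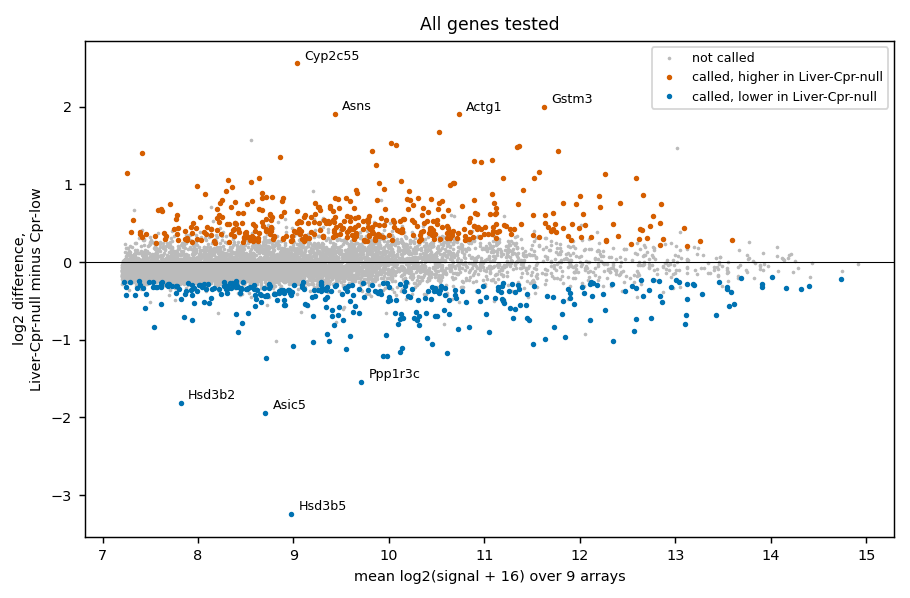
Log2 difference between Liver-Cpr-null and Cpr-low (vertical axis) against mean log2(signal + 16) over 9 arrays (horizontal axis), 1 point per tested gene. The 414 genes called higher reach 2.56 (Cyp2c55) and the 333 genes called lower reach -3.24 (Hsd3b5).

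Set beside Cpr-lox, most called genes had the control between the models. Mean signals of Cpr-lox lay between those of the models for 258 of the 414 higher genes (62.3%) and for 244 of the 333 lower genes (73.3%). For 86 higher genes (20.8%) and 55 lower genes (16.5%), Liver-Cpr-null was farther from Cpr-lox on the same side as Cpr-low. The remaining 70 higher genes (16.9%) and 34 lower genes (10.2%) were farther from Cpr-lox in Cpr-low. Both comparisons with the control share the Cpr-lox pools, which ran apart from all but 1 of the other arrays, and they called 632 genes (7.18%) for Liver-Cpr-null, with 3.69% of tested genes higher and 3.49% lower, and 514 (5.84%) for Cpr-low, with 2.33% higher and 3.51% lower. Among the 747 genes, 27 were called against Cpr-lox in the same direction in both models with the larger change in Liver-Cpr-null, and 14 with the larger change in Cpr-low. Opposite calls were made for 9 genes, whereas 236 were called against Cpr-lox in Liver-Cpr-null alone, 159 in Cpr-low alone and 302 in neither.

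The 2 largest rises beyond Cpr-low, those of Cyp2c55 and Gstm3, were in enzymes that handle foreign compounds, and Asns, Actg1, Anxa5, Vnn1 and Tubb2a, described further on, came next. Cyp2c55, a P450 induced through CAR and PXR, gave signals of 2774, 2132 and 2166 in the Liver-Cpr-null pools, 281, 363 and 553 in the Cpr-low pools and 147, 138 and 131 in the Cpr-lox pools. No pools of any pair of models overlapped, and the difference between Liver-Cpr-null and Cpr-low was 2.56 ± 0.18 (adjusted p = 5.49e-06). Gstm3, a glutathione S-transferase that conjugates reactive compounds, measured 14658, 15054 and 10984 in Liver-Cpr-null, 3741, 3042 and 3292 in Cpr-low and 614, 703 and 735 in Cpr-lox. Cpr-low was again intermediate in all pools, with a difference of 2.00 ± 0.12 (adjusted p = 2.46e-06) between the models; its probe set may share targets with close relatives. Cyp2b10, the classical CAR target, stood at 10965, 8016 and 9884, 3052, 3792 and 3357 and 291, 659 and 828 in the same order of models. The levels were stepwise without overlap and Liver-Cpr-null exceeded Cpr-low by 1.49 ± 0.27 (adjusted p = 0.00473), a call that held within the second run (adjusted p = 0.0191) and was lost with the hybridization run as a block (1.39, adjusted p = 0.061).

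The same order held for a transporter and several enzymes of this programme. Slco1a4, an organic anion uptake carrier, had signals of 4098, 4796 and 4477 in Liver-Cpr-null, 1698, 1825 and 1829 in Cpr-low and 1354, 1111 and 1282 in Cpr-lox, a difference of 1.31 ± 0.09 (adjusted p = 5.49e-06) between the models. Its Cpr-low pools were nearer to the control than to Liver-Cpr-null. Gstm2 was measured at 1964, 2409 and 1966, 909, 839 and 885 and 449.6, 408 and 374 (difference 1.25 ± 0.10 (adjusted p = 1.43e-05)), and the carboxylesterase Ces2a at 8699, 8569 and 8679, 4982, 5002 and 4463 and 2652, 2156 and 2600.2 (difference 0.84 ± 0.09 (adjusted p = 0.000152)). Both were stepwise from Cpr-lox through Cpr-low to Liver-Cpr-null in all pools. Other carboxylesterases did not all follow Ces2a, since of 9 tested 2 were higher (22.2%) and 1 lower (11.1%), with a median of -0.14. Over all genes, 4.71% were higher and 3.79% lower. Ephx1, microsomal epoxide hydrolase, exceeded Cpr-low by 0.44 ± 0.07 (adjusted p = 0.00167), after changes from Cpr-lox of 0.75 in Liver-Cpr-null and 0.31 in Cpr-low.

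Of 31 tested CAR and PXR targets, 14 were higher and 1 was lower in Liver-Cpr-null than in Cpr-low, with a median difference of 0.28 (0.27 within the second run) against -0.08 for all genes. Their median change from Cpr-lox was 0.77 in Liver-Cpr-null and 0.54 in Cpr-low. Induction was not uniform. Cyp3a11, the classical PXR target, gave 19776, 19287 and 19541 in Liver-Cpr-null and 18771, 17847 and 19798 in Cpr-low, levels that overlapped and were not called different (0.06 ± 0.05, adjusted p = 0.48), while both models were above the Cpr-lox pools at 15664, 14876 and 14995. The receptor gene Nr1i3, which encodes CAR, also overlapped, with 1324, 1307 and 1222 against 1473, 1286 and 1261 (-0.06 ± 0.08, adjusted p = 0.629); the sign of this small difference turned under deposited and median scaling. Abcc3, an exporter of bile acid and drug conjugates, and Cyp2c38 had no call between Cpr-low and Cpr-lox (changes of 0.12 and -0.18, adjusted p = 0.61 and 0.395). In Liver-Cpr-null they exceeded Cpr-low by 0.74 ± 0.11 (adjusted p = 0.00162) and 0.68 ± 0.10 (adjusted p = 0.00144). The single member lower in Liver-Cpr-null was Car8, a carbonic anhydrase relative, at -0.94 (adjusted p = 0.00607), named after its value was seen.

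**Figure D2:**
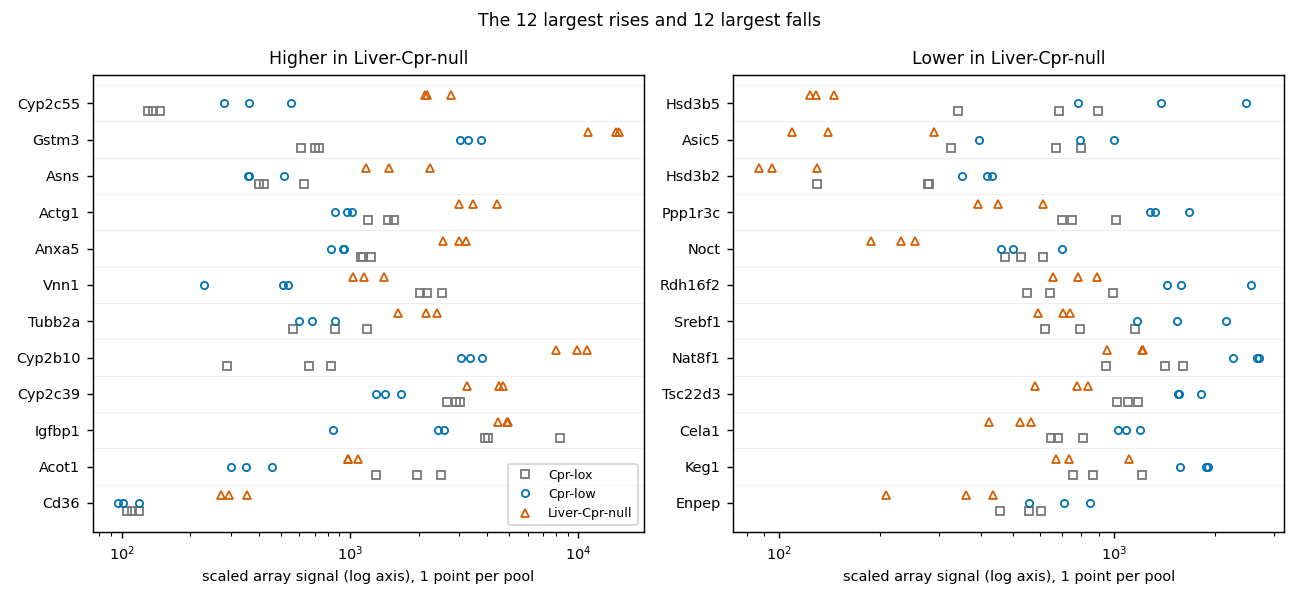
Scaled signal on every array (horizontal log axis, 1 point per pool) of the 12 genes with the largest rises and the 12 with the largest falls from Cpr-low to Liver-Cpr-null. The 24 genes were chosen among called genes whose pools of the 2 models do not overlap. Cpr-lox lies below both models for Cyp2c55 and Gstm3 and between them for Cyp2c39 and Ppp1r3c.

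Targets of Nrf2, the regulator of antioxidant defence, were also mostly on the higher side, with 10 of 24 higher and 1 lower (median 0.28), although Gstm3 and some others are shared with the CAR and PXR list. Leaving out Cpr-low pool 1 or 2 or any Liver-Cpr-null pool gave 5 or 6 higher members. Entpd5, a nucleotidase of the endoplasmic reticulum, was 2603, 2924 and 2200.5 in Liver-Cpr-null, 1099, 1205 and 1506 in Cpr-low and 1349.8, 1327 and 1215 in Cpr-lox. Cpr-low overlapped with the control, and Liver-Cpr-null exceeded it by 1.01 ± 0.12 (adjusted p = 0.000417). Ugdh, which makes UDP-glucuronic acid for glucuronidation, exceeded Cpr-low by 0.93 ± 0.16 (adjusted p = 0.00302). Hmox1, heme oxygenase 1, itself a partner of Cpr, had signals of 761, 478 and 750.0 in Liver-Cpr-null against 338, 294 and 268 in Cpr-low and 299.7, 313 and 257 in Cpr-lox. It was higher by 1.08 ± 0.15 (adjusted p = 0.00106) without overlap, but within the second run the adjusted p was 0.061. Gclc, the catalytic subunit of the first enzyme of glutathione synthesis, went the other way at -0.70 ± 0.11 (adjusted p = 0.00243), and was named after its value was seen.

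Glutathione S-transferases moved in both directions, with 4 of 20 higher and 3 lower in Liver-Cpr-null. Gsta3, which detoxifies aflatoxin epoxide in the mouse, gave 5136, 4287 and 5335 in Liver-Cpr-null, 7160.1, 7491 and 7973 in Cpr-low and 3323, 2806 and 3457 in Cpr-lox. Its rise over the control was therefore larger in Cpr-low, and Liver-Cpr-null was lower by -0.62 ± 0.10 (adjusted p = 0.00213). The outer mitochondrial cytochrome b5, Cyb5b, showed the same order, at 1246, 1135 and 1285, 1764, 1926 and 2044 and 870.0, 724 and 793, with a difference of -0.64 ± 0.09 (adjusted p = 0.00106) that was not called (-0.35, adjusted p = 0.107) when its probe sets were averaged. Neither gene had overlapping pools between any of the models. The microsomal cytochrome b5, Cyb5a, which can receive electrons from Cpr, was not called different (0.10 ± 0.06, adjusted p = 0.276). Alas1, which starts heme synthesis, was not called either (-0.32 ± 0.13, adjusted p = 0.156).

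Across P450 families 1 to 4, 4 of 39 tested genes were higher (10.3%, against 4.71% of all genes) and 6 lower (15.4%, against 3.79%). The median of the list was -0.04, against -0.08 for all genes. Cyp2d26, a liver P450 of the 2D subfamily, was lower at -0.51 ± 0.07 (adjusted p = 0.00106). Cyp4f14, an enzyme that inactivates leukotriene B4, and Cyp2d13, both named after their values were seen, were lower by larger amounts (-1.06 and -1.02). For Cyp4f14 the Liver-Cpr-null pools (1214, 861 and 1139.6) overlapped with Cpr-lox (1329.7, 800.2 and 1277), and the Cpr-low pools (2425, 2102 and 2168) were the high ones. Among other oxidation enzymes the fatty aldehyde dehydrogenase Aldh3a2 was higher (1.01 ± 0.18 (adjusted p = 0.0037)), and Adh4, an alcohol and retinol dehydrogenase, and Aldh1l1, an enzyme of folate metabolism, were lower (-0.97 ± 0.13 (adjusted p = 0.000879) and -0.73 ± 0.07 (adjusted p = 0.000149)).

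Opposite calls against Cpr-lox were made for 9 genes, 4 of them up in Liver-Cpr-null and down in Cpr-low. Actg1, cytoplasmic gamma-actin, measured 3473, 4424 and 3015 in Liver-Cpr-null, 858, 1025 and 974 in Cpr-low and 1198, 1553 and 1462 in Cpr-lox. No pools overlapped between models, with changes from Cpr-lox of 1.35 and -0.55 and a difference between the models of 1.90 ± 0.13 (adjusted p = 5.49e-06). Anxa5, annexin A5, a phospholipid-binding protein, stood at 2994, 2564 and 3219, 930.5, 828 and 945 and 1138, 1236 and 1121, again without overlap (difference 1.68 ± 0.09 (adjusted p = 2.01e-06)). Cyp2c39, a P450 that oxidizes retinoic acid in mouse liver, gave 3258, 4689.7 and 4483, 1669, 1422 and 1302 and 2664, 3049 and 2922, so that it was induced in Liver-Cpr-null (0.51) and reduced in Cpr-low (-0.97). The models differed by 1.48 ± 0.13 (adjusted p = 5.35e-05). Ptpmt1, a phosphatase of mitochondrial cardiolipin synthesis, was the smallest of these, at 0.33 and -0.46 against Cpr-lox.

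The other 5 were down in Liver-Cpr-null and up in Cpr-low. Ppp1r3c, a glycogen-targeting subunit of protein phosphatase 1, had signals of 451, 393 and 612 in Liver-Cpr-null, 1282, 1323 and 1675 in Cpr-low and 1017, 699.9 and 751 in Cpr-lox, with a difference of -1.54 ± 0.17 (adjusted p = 0.000206) and no overlapping pools. Hsd3b2, of the 3-beta-hydroxysteroid dehydrogenase family, was 129.8, 86.7 and 95.2, 434, 418 and 351 and 281, 129.7 and 278. Cpr-lox pool 2 reached down to the Liver-Cpr-null pools, whereas Cpr-low lay above both (difference -1.81 ± 0.22 (adjusted p = 0.000467)). Tsc22d3, the glucocorticoid-induced leucine zipper, was 774, 580.4 and 839, 1560.1, 1551 and 1818 and 1019.9, 1181 and 1099.9, in 3 separate ranges (difference -1.16 ± 0.12 (adjusted p = 0.000173)). Cela1, an elastase best known from the pancreas, was lower by -1.12 ± 0.11 (adjusted p = 0.000152), and Uox, urate oxidase, by -0.68 ± 0.07 (adjusted p = 0.000111). The other 5 tested pancreas markers were not called. Calls against Cpr-lox are sensitive to the run: with the hybridization run as a block, in which Cpr-low pool 1, scanned on the other day, is the one array that shares a run with Cpr-lox, 1 gene kept opposite calls, while all 9 remained called between the models.

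**Figure D3:**
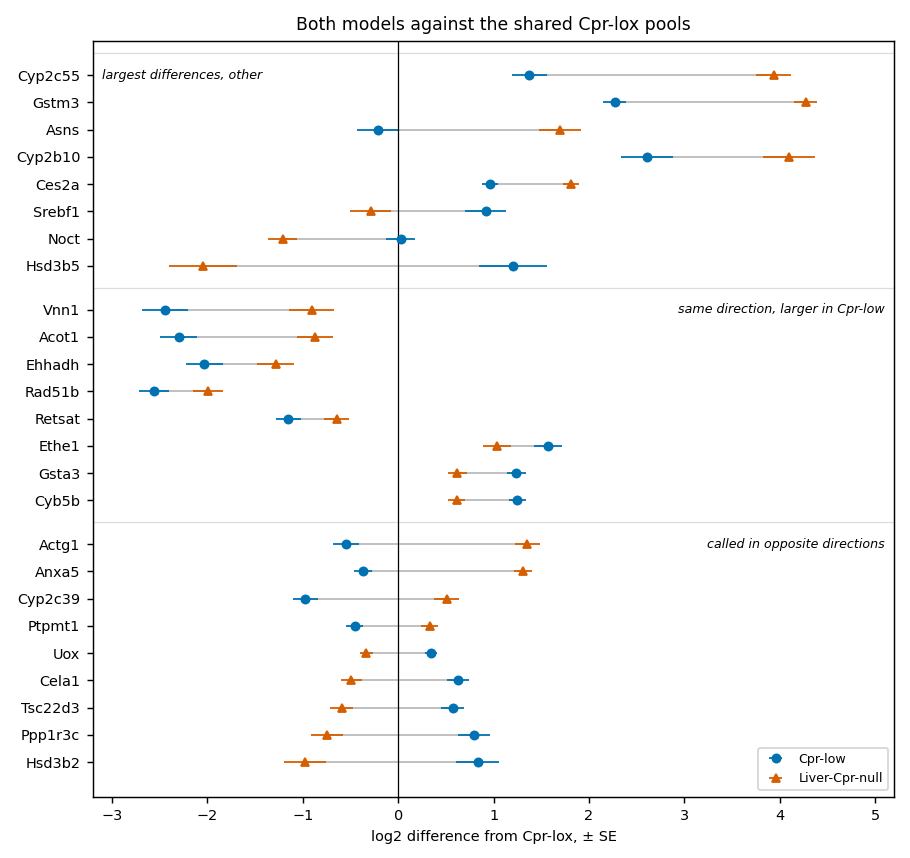
Log2 difference from the shared Cpr-lox pools (horizontal axis, ± SE, n = 3 pools per model) for Cpr-low (circles) and Liver-Cpr-null (triangles). For the 9 genes at the bottom the 2 models lie on opposite sides of 0, as for Actg1, and for Vnn1 and Acot1 Cpr-low lies farther from 0.

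The cytoskeleton list was one-sided, with 10 of 34 genes higher and 0 lower in Liver-Cpr-null by the limma fit (14 and 2 at an unadjusted p under 0.05), and a median of 0.13 (0.17 within the second run, 0.05 without Liver-Cpr-null pool 2). Averaging the probe sets of a gene gave a median of 0.07. Tubb2a, a beta-tubulin, gave 2144, 2417 and 1625 in Liver-Cpr-null, 683, 857 and 596 in Cpr-low and 563, 1192 and 860.2 in Cpr-lox (difference 1.51 ± 0.22 (adjusted p = 0.00137)). Krt18, a keratin of the hepatocyte skeleton, gave 3566, 4377 and 2571, 1678, 1697 and 1447 and 2146, 2349.9 and 2400.4 (difference 1.09 ± 0.15 (adjusted p = 0.000919)). In both genes Liver-Cpr-null was above all other pools. Krt8, the partner of Krt18 in the filament, named after its value was seen, exceeded Cpr-low by 0.88 ± 0.13 (adjusted p = 0.00162), and Myl12a, a myosin light chain, by 0.67 ± 0.09 (adjusted p = 0.00106); the other probe set of Myl12a differed by -0.09, and their mean by 0.29. Beta-actin did not follow gamma-actin: Actb was 2177, 2299 and 2529.8 in Liver-Cpr-null and 2978, 2925 and 2727 in Cpr-low, lower by a difference that was not called (-0.30 ± 0.09, adjusted p = 0.0648). The ratio of 3' to 5' signal for the control probes of beta-actin, a sign of RNA or labelling quality, was 1.97, 1.99 and 1.62 in Liver-Cpr-null against 1.25, 1.26 and 1.17 in Cpr-low, whereas that of Gapdh overlapped (2.34 to 2.48 and 2.36 to 2.72). Its part in these results was not tested.

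Promoter stretches from RefSeq (GRCm38.p6, written 5' to 3' on the strand of the gene) are shown for Actg1, the largest opposite change, for Asns, the single called member of its list, and for Pdk4, the one PPAR-alpha target named here with a matching motif on its promoter. Pdk4 holds 2 matches, and the one read on its own strand is shown. Capitals mark a CArG box, the element bound by serum response factor, in Actg1 (chr11:120348551-120348610, minus strand), the core TGATGAAAC of the amino acid response element in Asns (chr6:7693199-7693257, minus strand) and GGNCAAAGG, a core of the element bound by PPAR-alpha and its partner RXR, in Pdk4 (chr6:5496414-5496472, minus strand).
Actg1: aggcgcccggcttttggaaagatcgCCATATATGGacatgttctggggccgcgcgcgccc
Asns: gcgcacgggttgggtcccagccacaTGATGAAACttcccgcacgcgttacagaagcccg
Pdk4: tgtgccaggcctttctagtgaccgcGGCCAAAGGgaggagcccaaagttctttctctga
Windows ran from 250 bases before to 50 after the start of each gene and both strands were searched. A CArG box was present in 1.70% of 7059 tested genes with a window and in 2 of 27 members of the cytoskeleton list, Actg1 and Anxa5. The amino acid response core was present in 0.156% and in 1 of 21 members of the ATF4 list, and GGNCAAAGG in 2.59% and in 2 of 22 PPAR-alpha targets. TCACNCCAC, a sterol regulatory element core, was present in 1.53% and in 1 of 6 genes up to squalene, 0 of 9 after it and 1 of 17 for fatty acids and triglycerides. The CArG box and the amino acid response core were chosen after the values of Actg1 and Asns were seen, and the matches are descriptions of the sequence only.

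Asns, asparagine synthetase, a textbook target of the transcription factor ATF4, was among the largest rises, at 1176, 2234 and 1479.6 in Liver-Cpr-null, 515, 363 and 359 in Cpr-low and 400.3, 422 and 632 in Cpr-lox. Cpr-low overlapped with the control and Liver-Cpr-null exceeded it by 1.91 ± 0.22 (adjusted p = 0.000327). It was the only 1 of 22 tested members of the ATF4 list that was called, and the list's median was -0.04. Atf5, Trib3 and Ddit3, other members, differed by 0.11, 0.01 and -0.03 (adjusted p = 0.61, 0.954 and 0.772).

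Some genes were farther from the control in Cpr-low than in Liver-Cpr-null, among them some PPAR-alpha targets. Vnn1, pantetheinase, a PPAR-alpha target, measured 1032, 1148 and 1409 in Liver-Cpr-null, 230.2, 509.6 and 534 in Cpr-low and 2176, 2543 and 2029 in Cpr-lox. The models did not overlap, both lay below Cpr-lox, and the difference between them was 1.54 ± 0.24 (adjusted p = 0.00186), or 1.16 without Cpr-low pool 1, the lowest array. Acot1, a fatty acyl-CoA thioesterase and PPAR-alpha target, was 977, 1080.0 and 976, 302, 456 and 352 and 1972, 2509.9 and 1303, in the same order (difference 1.43 ± 0.19 (adjusted p = 0.000879)). Cyp4a14, a fatty acid hydroxylase, was 10075, 10344 and 9953 in Liver-Cpr-null, 1269, 6065 and 6241 in Cpr-low and 14651, 16616 and 14614 in Cpr-lox. Cpr-low pool 1 was far below the rest, the difference of 1.47 ± 0.43 was not called (adjusted p = 0.0516), and without that pool it was 0.72 and called (adjusted p = 0.000478).

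Of 25 PPAR-alpha targets 8 were higher and 1 lower, with a median of 0.24, which was 0.12 within the second run; 5 were higher without Liver-Cpr-null pool 2 or pool 3. The median change from Cpr-lox was -0.38 in Liver-Cpr-null and -0.63 in Cpr-low. Not all members followed that order. Cd36, a fatty acid uptake protein, was 353, 273 and 295 in Liver-Cpr-null against 96.4, 102 and 119.7 in Cpr-low and 119, 105 and 111 in Cpr-lox, so that Liver-Cpr-null alone was raised (difference 1.40 ± 0.10 (adjusted p = 5.49e-06)). Pdk4, which restrains glucose oxidation, was 236, 218 and 188, 70.7, 89.5 and 107 and 113, 184 and 116, highest in Liver-Cpr-null (difference 1.14 ± 0.16 (adjusted p = 0.00106)). The 1 lower target was Fabp1, the liver fatty acid binding protein, a call lost without Liver-Cpr-null pool 1 and under median scaling or quantile normalization. Of lipases outside that list, Lpl, lipoprotein lipase, exceeded Cpr-low by 0.58 ± 0.09 (adjusted p = 0.00168) and Lipg, endothelial lipase, was lower by -0.55 ± 0.10 (adjusted p = 0.00458).

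Called lipid synthesis genes were, on the contrary, mostly lower in Liver-Cpr-null. In fatty acid and triglyceride synthesis 6 of 21 genes were lower and 1 was higher, with a median of -0.32 (-0.29 within the second run); the median change from Cpr-lox was 0.03 in Liver-Cpr-null and 0.29 in Cpr-low. Without Cpr-low pool 1, Liver-Cpr-null pool 1 or Liver-Cpr-null pool 2 the lower genes numbered 3, 2 and 3. Acly, ATP citrate lyase, which supplies cytosolic acetyl-CoA, was 883, 836 and 928 in Liver-Cpr-null, 1518, 1449 and 1692 in Cpr-low and 947, 925 and 874 in Cpr-lox. Liver-Cpr-null overlapped with the control and Cpr-low stood above both (difference -0.80 ± 0.08 (adjusted p = 0.000152)). Srebf1, the regulator of lipid synthesis genes, was 706, 592 and 738, 2164, 1545 and 1174 and 795, 622 and 1153, highest in Cpr-low and overlapping in the others (difference -1.20 ± 0.22 (adjusted p = 0.00455)). Elovl3, a fatty acid elongase, was 1462, 1312 and 1563, 2677, 2639 and 2782 and 2363, 2747 and 2062; here Liver-Cpr-null was below both (-0.90 ± 0.10 (adjusted p = 0.00031)). Fasn and Scd1, fatty acid synthase and the stearoyl-CoA desaturase, had overlapping or adjoining pools and no call (-0.42 and -0.37, adjusted p = 0.201 and 0.399).

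All 18 tested cholesterol synthesis genes had a fitted difference below 0 (-0.06 at the least, against a median of -0.08 over all genes, so the sign of the smallest depends on scaling). Of 8 genes up to squalene 0 were higher and 1 was lower (0 and 2 at an unadjusted p under 0.05 in limma). Of 10 genes after squalene, where Cpr-dependent enzymes act, 0 were higher and 2 lower (0 and 4 unadjusted). The lower calls made up 12.5% of the genes up to squalene and 20% of those after it, against 3.79% of all genes. The lower calls after squalene numbered 0 within the second run and 0 without Cpr-low pool 1. Median differences were -0.12 and -0.27, after changes from Cpr-lox of 0.48 in Liver-Cpr-null and 0.72 in Cpr-low for the later steps. Sqle, squalene monooxygenase, gave 864, 549 and 654 in Liver-Cpr-null and 1003, 598 and 938 in Cpr-low, above 328, 383 and 305 in Cpr-lox, and the models overlapped (-0.28 ± 0.19, adjusted p = 0.316). The sterol methyl oxidase Msmo1 ranged widely, at 2209.8, 804 and 1800.2 against 2182, 1491 and 2648, and was not called (-0.47 ± 0.30, adjusted p = 0.301).

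Called bile acid synthesis genes moved in both directions, more of them lower than higher. Cyp7a1, the rate-limiting enzyme of the classical pathway, was 4767, 3780.1 and 4532 in Liver-Cpr-null, 1586, 1701 and 1984 in Cpr-low and 893, 679 and 1130.1 in Cpr-lox, stepwise without overlap (difference 1.30 ± 0.15 (adjusted p = 0.000402)). Cyp8b1, the sterol 12-alpha-hydroxylase needed for cholic acid, was 9499, 9079 and 8888, 4403, 5262 and 5527 and 5864, 6008 and 5779; Liver-Cpr-null alone was raised (difference 0.86 ± 0.08 (adjusted p = 0.000107)). Nr0b2, which encodes SHP, the FXR target that represses Cyp7a1, was 506, 323 and 591, 959, 986 and 772 and 1115, 820.4 and 1215, lower in Liver-Cpr-null by -0.95 ± 0.19 (adjusted p = 0.00909) and not called within the second run (adjusted p = 0.0688). Slc27a5, the bile acid-CoA ligase, and Scp2, a sterol carrier protein with thiolase activity, were lower by -0.47 ± 0.07 (adjusted p = 0.00188) and -0.35 ± 0.06 (adjusted p = 0.00256). Over the list, 2 of 18 genes were higher (11.1%, against 4.71% of all genes) and 7 lower (38.9%, against 3.79%), with a median of -0.06. Within the second run 2 were higher and 3 lower.

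Of 17 transporters of bile acids, sterols and organic anions 3 were higher (17.6%, against 4.71% of all genes) and 6 lower (35.3%, against 3.79%). Abcg8, part of the Abcg5-Abcg8 pair that exports sterols into bile, was 765, 711 and 872 in Liver-Cpr-null, 1346, 1299 and 1247 in Cpr-low and 1357, 1229 and 1549 in Cpr-lox (difference -0.72 ± 0.10 (adjusted p = 0.000943)). Liver-Cpr-null alone was low. Abcg5, named after its value was seen, differed by the same amount (-0.72 ± 0.13 (adjusted p = 0.00381), but adjusted p = 0.0651 within the second run). Slco1a1, an anion carrier more abundant in male mouse liver, was 899.8, 860.3 and 851, 1266, 1531 and 1647 and 1639, 1396 and 1454, lower in Liver-Cpr-null by -0.75 ± 0.10 (adjusted p = 0.000829), opposite in sign to its relative Slco1a4.

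The largest fall was that of Hsd3b5, a male-biased 3-ketosteroid reductase of mouse liver. Its signal was 146, 123 and 129 in Liver-Cpr-null, 2477, 1379 and 780.3 in Cpr-low and 684, 341 and 895 in Cpr-lox. Liver-Cpr-null was below all other pools and the Cpr-low pools varied widely, with a difference of -3.24 ± 0.36 (adjusted p = 0.000226) and of -2.83 without Cpr-low pool 1. Of 15 genes of steroid hormone metabolism 0 were higher and 7 lower by limma, the same counts as at an unadjusted p under 0.05 (median -0.23, -0.19 within the second run). Hsd11b1, which regenerates active glucocorticoid, was 5408, 4638 and 5702 in Liver-Cpr-null against 8158, 8753 and 8895 in Cpr-low and 7876, 6788 and 6835 in Cpr-lox, below both (difference -0.72 ± 0.09 (adjusted p = 0.000424)). Of 17 male-biased liver genes 0 were higher and 7 lower, with 1 and 9 unadjusted (median -0.22, -0.09 within the second run), with Hsd3b5, Slco1a1 and Elovl3 among them. Of 9 female-biased genes 2 were higher, among them Cd36, and 1, the hepcidin gene Hamp2, was lower (-1.02 ± 0.14 (adjusted p = 0.00106)). Its second probe set differed by -0.08, and the mean of both by -0.55. With probe sets averaged, 1 female-biased gene was higher. Igfals, the acid-labile partner of circulating IGF1 and a growth hormone target, was lower by -0.62 ± 0.12 (adjusted p = 0.00571).

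Other large falls were spread over several kinds of gene. Asic5, an ion channel, was 109, 139.9 and 289.5 in Liver-Cpr-null, 394, 791 and 999 in Cpr-low and 326, 674 and 798 in Cpr-lox, below both without overlap (difference -1.94 ± 0.38 (adjusted p = 0.00771)). Noct, the rhythmic phosphatase nocturnin, was 254, 231 and 188, 501, 461 and 701 and 472, 616 and 529; Liver-Cpr-null was the low model (difference -1.24 ± 0.15 (adjusted p = 0.000417)). Nat8f1, an acetyltransferase relative, was 1215, 956 and 1225, 2721, 2669.6 and 2265 and 1423, 948 and 1609, and there Cpr-low was the high one (difference -1.17 ± 0.16 (adjusted p = 0.00106)). Enpep, glutamyl aminopeptidase, was lower by -1.08 ± 0.21 (adjusted p = 0.00832). Rdh16f2, of the retinol dehydrogenase family, and Keg1, of the glycine N-acyltransferase family, were lower by -1.21 and -1.11, calls lost within the second run (adjusted p = 0.0793 and 0.0999). Of 17 clock genes and outputs 0 were higher and 5 lower by limma, Noct and Tsc22d3 among them. At an unadjusted p under 0.05 the counts were 0 and 11 (median -0.28). The time of day at which livers were taken is not stated in the labels.

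**Figure D4:**
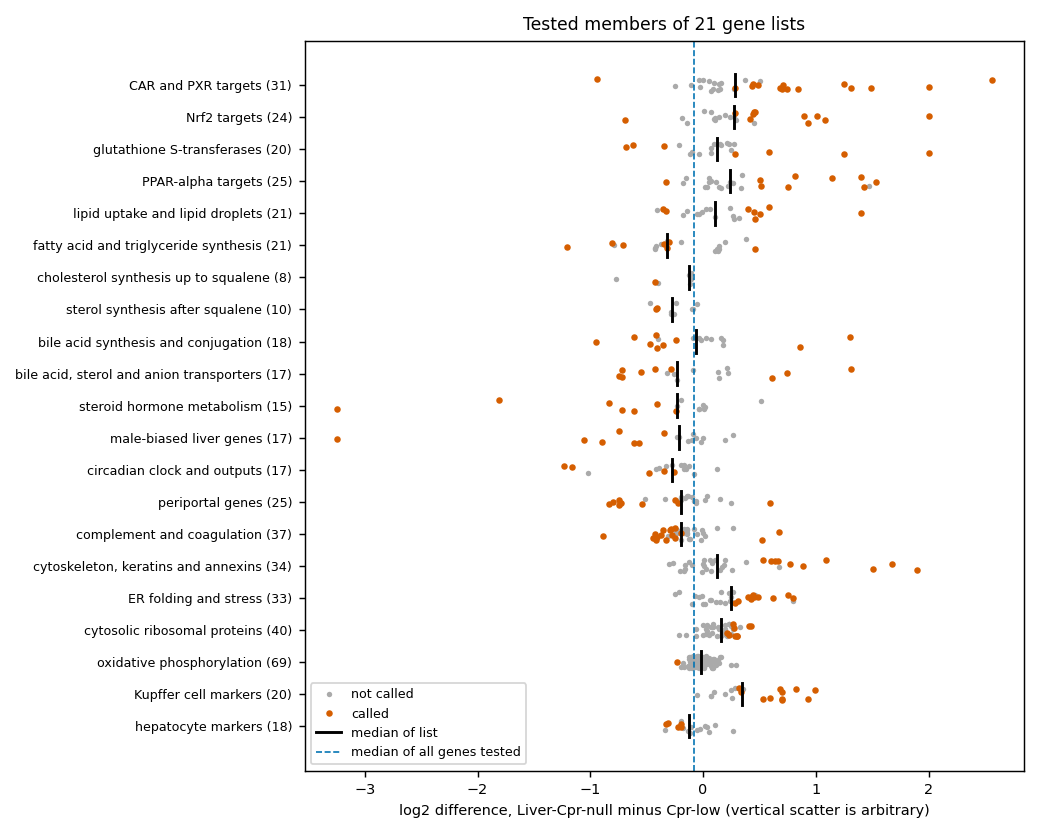
Log2 difference between Liver-Cpr-null and Cpr-low (horizontal axis) of each tested member of 21 gene lists, with called members in orange, the median of each list as a black bar and the median of all tested genes (-0.08) as a dashed line. CAR and PXR targets and Kupffer cell markers extend to the right, and steroid hormone and complement genes to the left.

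Genes expressed around the portal vein and genes of secreted plasma proteins were more often called lower than higher. Over all genes, 3.79% were lower and 4.71% higher. Among 25 periportal genes 8 were lower (32%) and 1 was higher (4%), with a median of -0.20 (-0.21 within the second run). Among 26 pericentral genes 2 were lower (7.69%) and 4 higher (15.4%), with a median of -0.06. Without Liver-Cpr-null pool 1, 5 periportal genes were lower. Ftcd and Agxt, enzymes of histidine and glyoxylate breakdown, were lower by -0.72 ± 0.09 (adjusted p = 0.000479) and -0.54 ± 0.09 (adjusted p = 0.0027). Pigr, which carries IgA into bile, was 5903, 5746 and 6978 in Liver-Cpr-null, 10583, 11191 and 10583 in Cpr-low and 10420.0, 9682 and 9908 in Cpr-lox; Liver-Cpr-null alone was low (difference -0.80 ± 0.08 (adjusted p = 0.000107)). Oat, the pericentral ornithine aminotransferase, was higher by 0.75 ± 0.08 (adjusted p = 0.000173). Of 37 complement and coagulation genes 14 were lower (37.8%) and 2 higher (5.41%), with a median of -0.19 (-0.24 within the second run). Leaving out any 1 of the 6 pools gave 5 to 9 lower. C9, the terminal complement component, was 4535, 3826 and 4144, 7479, 8120.2 and 7566 and 6108, 5920.4 and 9022, lower in Liver-Cpr-null than in any other pool (difference -0.89 ± 0.13 (adjusted p = 0.00135)). C8g was lower by -0.44 ± 0.07 (adjusted p = 0.00174). Among 27 acute phase genes 7 (25.9%) were lower, such as Itih4 (-0.69 ± 0.08 (adjusted p = 0.000424)), and 1 (3.7%), Orm3, was higher (0.74 ± 0.12 (adjusted p = 0.00223)). The acute phase list as a whole did not shift down, with a median of -0.005 against -0.08 for all genes. Within the second run 2 of its genes were higher and 2 lower.

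Genes of protein folding and secretion in the endoplasmic reticulum, the membrane in which Cpr and the P450 enzymes reside, were higher in 11 and lower in 0 of 33 cases, with a median of 0.25 (0.23 within the second run). At an unadjusted p under 0.05 in limma the counts were 17 and 2, and without Cpr-low pool 1 or Liver-Cpr-null pool 1 the adjusted calls were 5 and 4. Hspa5, the chaperone BiP, was 5088, 4479.8 and 3999.7 in Liver-Cpr-null, 2292, 2892 and 2835 in Cpr-low and 3241, 4234 and 4399 in Cpr-lox. Liver-Cpr-null overlapped with the control, Cpr-low was the low model, and they differed by 0.76 ± 0.13 (adjusted p = 0.00302). Manf, a secreted stress-induced factor, exceeded Cpr-low by 0.80 ± 0.14 (adjusted p = 0.00454). Of 40 ribosomal protein genes 9 were higher (22.5%, against 4.71% of all genes), such as Rps9 (0.42 ± 0.07 (adjusted p = 0.00237)), and 0 lower. Of 34 proteasome genes 2 were higher, such as Psmd8 (0.40 ± 0.08 (adjusted p = 0.006)), and 0 lower. That share of 5.88% higher was near the 4.71% of all genes. Of 69 genes of oxidative phosphorylation 0 were higher and 1 lower. Without Cpr-low pool 2 or 3 or any Liver-Cpr-null pool 3 to 5 of the ribosomal genes were called. Unadjusted counts for the lists in this order were 20 and 0, 20 and 0, and 2 and 4, where 2296 of all 8797 genes passed in either direction. Medians of these 3 lists were 0.16, 0.21 and -0.02. Of 12 reference genes 3 were higher and 0 lower: Gusb (0.49 ± 0.07 (adjusted p = 0.0015)), and, with calls lost under some settings, Hprt (0.47) and Pgk1 (0.22). Unadjusted counts for these were 5 and 2.

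Markers of Kupffer cells, the resident macrophages of the liver, were higher in 11 of 20 cases and lower in 0, with a median of 0.35 (0.47 within the second run). At an unadjusted p under 0.05 in limma 15 were higher and 0 lower. Mpeg1, a pore-forming protein of macrophages, was 877, 914 and 862 in Liver-Cpr-null, 551, 544 and 523 in Cpr-low and 587, 542 and 593 in Cpr-lox (difference 0.70 ± 0.07 (adjusted p = 0.000155)). Complement C1qc was 782, 845 and 734, 463, 491 and 476 and 578, 560.1 and 557 (difference 0.70 ± 0.07 (adjusted p = 0.000173)), and Cd5l, a secreted macrophage protein, was 2295, 3212 and 2069, 1256, 1348 and 1122 and 1373, 1181 and 1309 (difference 0.99 ± 0.14 (adjusted p = 0.000943)). For all 3 genes Liver-Cpr-null was above every other pool, and Cpr-low was not called different from Cpr-lox. Cd68, a lysosomal protein, exceeded Cpr-low by 0.68 ± 0.09 (adjusted p = 0.000957), and the protease Ctss by 0.93 ± 0.13 (adjusted p = 0.0011). Adgre1, a classical surface marker of macrophages, was 448, 457 and 418 against 428, 438 and 389 and was not called (0.07 ± 0.07, adjusted p = 0.492). In bulk liver RNA a higher number of cells and more RNA per cell cannot be told apart.

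The summed signal of the Kupffer markers was 16072 to 19722 in Liver-Cpr-null, 12199 to 12721 in Cpr-low and 12258 to 13346 in Cpr-lox, so only Liver-Cpr-null stood apart. Called hepatocyte markers differed less and the other way, with 5 of 18 lower and 0 higher (9 and 0 unadjusted), and 1 lower within the second run. Their median of -0.13 was near that of all genes tested (-0.08). Their summed scaled signals were 295734 to 301665 in Liver-Cpr-null and 317474 to 323849 in Cpr-low. Alb, albumin, was 24737, 25648 and 24919 in Liver-Cpr-null and 30978, 28089.5 and 28679 in Cpr-low (difference -0.22 ± 0.05 (adjusted p = 0.0228)); the call was lost under 11 of 24 settings, among them median scaling, quantile normalization, the second run alone and leaving out Cpr-low pool 1, Liver-Cpr-null pool 1 or Liver-Cpr-null pool 3, with differences from -0.25 to -0.05 over the settings. Leaving out any 1 of the 6 pools gave 0 to 3 hepatocyte markers lower. Called markers of other cells were 1 of 15 for endothelium, 0 of 18 for stellate cells and matrix, 1 of 10 for lymphocytes, 1 of 12 for neutrophils (Lyz2, also on the Kupffer list and named after its value was seen) and 0 of 4 for bile duct cells. Over all genes tested, 8.49% were called in either direction. Of 4 adipocyte markers 2 were higher, Lpl and Pparg, the latter (0.35) with a call lost under some settings, and of 5 erythroid markers 1 was higher and 1 lower. At an unadjusted p under 0.05 in limma, 2 stellate cell and matrix markers were higher and 2 lower, and 0 bile duct markers passed. The part of cell composition in the results above was not tested.

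**Figure D5:**
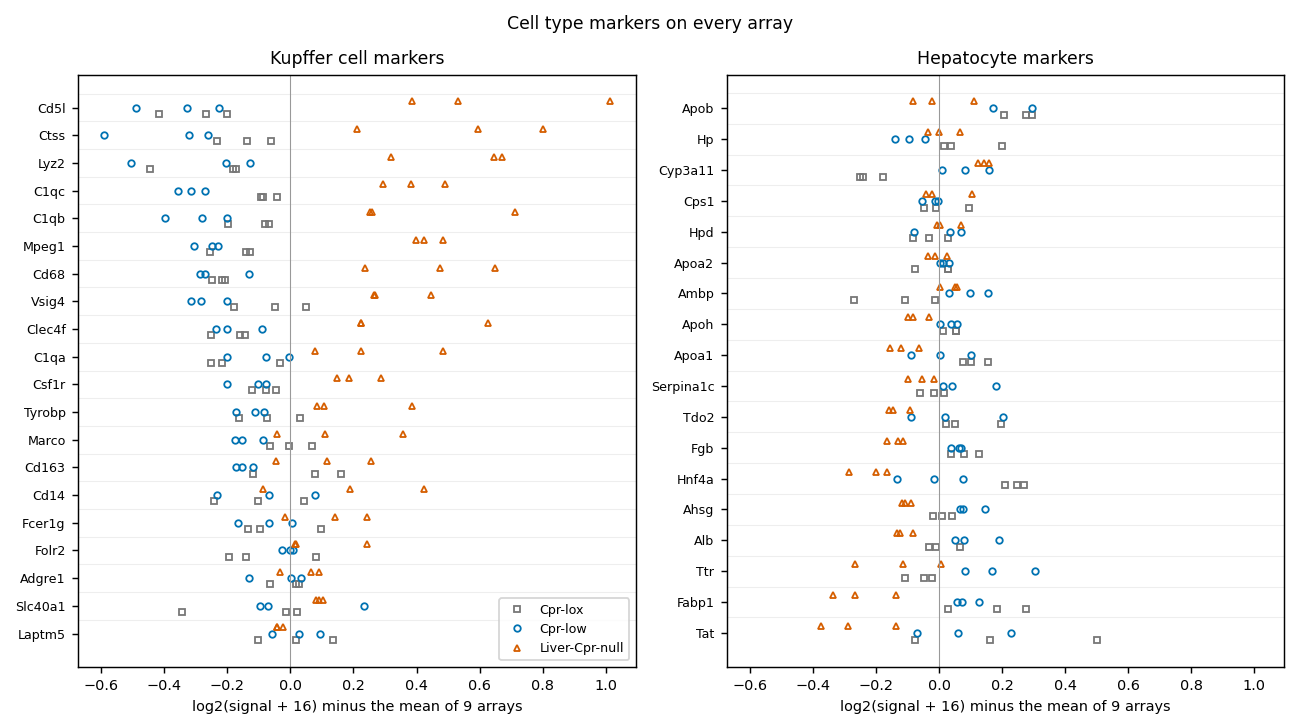
Log2(signal + 16) of Kupffer cell and hepatocyte markers on every array, as the difference from the mean of 9 arrays (horizontal axis, 1 point per pool). For Mpeg1, C1qc and Cd5l the Liver-Cpr-null pools lie above all Cpr-low and Cpr-lox pools, and hepatocyte markers differ by smaller amounts.

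Some interferon and antigen presentation genes were higher in Liver-Cpr-null. Usp18, an interferon-induced protease, was 601, 489.8 and 547 in Liver-Cpr-null, 287, 224 and 264 in Cpr-low and 269.6, 375 and 354 in Cpr-lox, above all other pools (difference 1.04 ± 0.12 (adjusted p = 0.000402)), yet 3 of 21 interferon genes were called (1 with probe sets averaged) and the median was -0.01. Of 18 antigen presentation genes 3 were higher, among them Ctss and the class I gene H2-D1 (0.49 ± 0.07 (adjusted p = 0.00135)). The higher calls made up 14.3% of the interferon genes and 16.7% of the antigen presentation genes, against 4.71% of all genes, and 0 were lower. Within the second run 1 and 2 were higher. Against Cpr-lox, 7 antigen presentation genes were called higher in Liver-Cpr-null and 0 in Cpr-low, where 3.69% and 2.33% of all genes were. Gadd45b, a stress-induced gene also activated through CAR, exceeded Cpr-low by 0.71 ± 0.09 (adjusted p = 0.000774). Its other probe sets differed by 1.92 and -0.10. Igfbp2, a binding protein of insulin-like growth factors, was 6251, 7163 and 6771, 3664, 4526 and 3762 and 6881, 5776 and 5872, with Cpr-low below both others (difference 0.76 ± 0.10 (adjusted p = 0.000572)). Its relative Igfbp1 was 4923, 4865 and 4448 in Liver-Cpr-null and 845, 2436 and 2586 in Cpr-low, a difference of 1.43 ± 0.36 (adjusted p = 0.0279) that was 0.91 (adjusted p = 0.0609) without Cpr-low pool 1; leaving out Liver-Cpr-null pool 1, 2 or 3 gave an adjusted p of 0.083, 0.0756 or 0.0566.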

How the data were processed

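Liver RNA of 3 mouse models was measured on 9 Affymetrix MOE430A arrays, per the file headers. The authors deposited linear signal intensity values as whole numbers, 1 per probe set, the lowest being 25 or 26 on an array. Their probe summary, background correction and scaling are not given in the sources used here. The number of arrays limits the precision. Signals were scaled to a common 2% trimmed mean, since array means differed by 10.2%, and log2(signal + 16) was used. Symbols came from GEO's platform annotation, checked against RefSeq (GRCm38.p6), which changed 0. Of 22626 probe sets that are not controls, 691 had several symbols and 1555 none. The upper 60% by mean were kept, with each gene read from its brightest probe set (2451 genes had several; 0 had opposite calls). Limma 3.58.1 (R 4.3.3) fitted all 9 arrays with an intensity trend, two-sided, with Benjamini-Hochberg adjustment over 8797 genes, and was tested on simulated data.

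The genes and the 56 lists were chosen with earlier results of these data known. Named genes were the 12 largest rises and 12 largest falls without overlap, up to 4 called members of a list with at least 2 called, genes called oppositely against Cpr-lox (up to 12), genes changed more in Cpr-low (up to 8) and a set of reference genes; others are said to be named after their values were seen, and members that were not called are named to show a list's spread. Alternatives changed the pseudocount, scaling, filter, trend, probe set, samples, and blocks of pool number, hybridization date or hybridization run, and left out each pool. Pool numbers did not pair the samples, since the correlations of deviations of same-numbered pools were -0.08, 0.12 and 0.22. Plots used matplotlib 3.10.9 (Python 3.11.15).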

Additional observations from a re-analysis of the deposited data

Results flagged for a closer look

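Probe sets that do not carry a single gene symbol were outside the comparison of named genes. Of 1178 such probe sets bright enough to be tested, 124 (10.5%) were called between Liver-Cpr-null and Cpr-low, 85 of them higher and 39 lower in Liver-Cpr-null. They are given here as a count because the sources used here do not pair each with 1 gene.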

How the results depend on the processing

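All 747 called genes kept their direction under each of the 24 alternatives except 1 gene when the probe sets of a gene were averaged, with 667 of them tested under the upper 40% filter. The calls themselves were less stable. Leaving out each pool in turn gave 403 to 788 called genes, 240 to 421 higher, 156 to 367 lower and 4 to 13 with opposite calls against Cpr-lox. Lower genes numbered 180 with signals as deposited and 131 with median scaling. Opposite calls numbered 2 with median scaling and 5 with quantile normalization. Within the second hybridization date 472 genes were called, 250 of them higher, and the date as a block left 1 gene with opposite calls; the recorded date does no more than separate the first hybridization run from the others. Settings with the hybridization run were chosen after seeing the data: the run as a block gave 448 called genes (246 higher, 202 lower, 1 opposite), and the second run alone gave 280 (151 and 129). The replicate block gave 1047 called genes, 541 higher and 506 lower, with 17 opposite, although pool numbers do not pair these samples. The difference of Nr1i3, not called in any of them, turned to 0.0044 with signals as deposited, 0.0289 with median scaling, 0.0113 with the date as a block, within the second date and without Cpr-low pool 1, and 0.0461 with the run as a block and within the second run; leaving out each pool gave -0.10 to 0.01. The cause of these shifts was not tested. Of 3691 values of named genes over the settings, 3271 kept their direction and side of the threshold, 405 lost the call, 8 gained it and 7 turned. How background was treated is unknown, which limits dim probe sets, and 3 pools per model limit the precision.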

Other observations

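Some genes outside the lists, chosen after their values were seen, kept their call under every setting. Fgl1, a protein secreted by hepatocytes, gave 3587, 3335 and 3325 in Liver-Cpr-null, 1432, 1571 and 1572 in Cpr-low and 3477, 5639.8 and 7769 in Cpr-lox, so that Cpr-low was the low model (1.16 ± 0.20, adjusted p = 0.00345 in limma). Neat1, a nuclear long non-coding RNA, and Tgm2, transglutaminase 2, were higher in Liver-Cpr-null by 1.08 ± 0.16 and 1.05 ± 0.14, with all Liver-Cpr-null pools above all Cpr-low and Cpr-lox pools. From the periportal list, the histidine-degrading enzymes Hal and Uroc1, also named after their values were seen, were both lower, by -0.75 ± 0.13 and -0.75 ± 0.14.

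Lists of lipid oxidation, retinoids and glucocorticoid targets were mixed. Of 24 genes of peroxisomal fatty acid oxidation 3 were higher and 3 lower in limma, and of 19 genes of retinoid metabolism 3 were higher and 3 lower. Of 21 genes of mitochondrial beta-oxidation 3 were higher and 1 lower, against 0 and 0 without Cpr-low pool 1. Of 17 glucocorticoid targets and metallothioneins 2 were higher and 4 lower. The metallothionein Mt2, named after its value was seen, was 6507, 5990.5 and 6475 in Liver-Cpr-null, 1967, 2772 and 4371 in Cpr-low and 4759, 6317 and 8670.4 in Cpr-lox, so that Liver-Cpr-null lay within the range of the control. Its difference between the models was 1.13 ± 0.24 (adjusted p = 0.0118 in limma), and 0.84 (adjusted p = 0.109) within the second run.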
